A study of Mus musculus with 2 samples.

Results

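The 39 genes described here take fatty acids into the muscle fibre, store them as triglyceride and oxidise them in mitochondria. They were chosen by gene symbol from knowledge of the pathway, with earlier results of these data known. All 39 were found among the 55536 GENCODE M21 genes of the deposited gene tables. RNA came from the gastrocnemius, the large and mostly fast-twitch calf muscle, of B6CASTF1/J mice, an F1 hybrid of C57BL/6J and CAST/EiJ. Both mice were males 10 days old and untreated as far as the labels say, and they form 1 group of 2 libraries from 300 ng of total RNA each, with ERCC spike-in RNA added. The labels number the animals 3 (replicate 1) and 4 (replicate 2), call the libraries biological replicates and give both the same donor code. With 1 group and no second condition, the design allows levels, their spread and the ratio between the 2 libraries, and no test of a condition.

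Long-chain fatty acids reach muscle on albumin or inside lipoproteins, whose triglyceride is split at the capillary wall. Inside the fibre they are joined to coenzyme A, and the acyl-CoA is either stored as triglyceride in lipid droplets or passed through the carnitine shuttle into mitochondria. There, each turn of the beta-oxidation spiral shortens the chain and delivers electrons to the respiratory chain. Milk is rich in fat, and sucklings draw much of their energy from fatty acids. Slow and oxidative fibres are known to hold more of this machinery than fast glycolytic fibres.

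The stretches of sequence shown first lie upstream of the members to which the later results return. Hadha and Hadhb encode the subunits of 1 enzyme and start back to back. Pdk4, Plin5, Mlycd and Ucp3 were the members with the largest ratios between the libraries among those whose stretch before the start is not taken up by annotated exons. All are from RefSeq's promoter table on GRCm38.p6, the build of mm10, limited to the 250 bases before the start and with bases that GENCODE M21 annotates as exon left out. Each is written 5′ to 3′ on the strand given. In the first, capitals mark the GC box GGGCGG, and in the other 4 they mark the nuclear receptor half-site AGGTCA, searched on both strands.
Hadha-Hadhb, chr5:30155163-30155247, plus strand: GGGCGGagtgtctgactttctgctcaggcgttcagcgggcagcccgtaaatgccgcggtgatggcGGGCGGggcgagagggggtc
Pdk4, chr6:5496310-5496528, minus strand: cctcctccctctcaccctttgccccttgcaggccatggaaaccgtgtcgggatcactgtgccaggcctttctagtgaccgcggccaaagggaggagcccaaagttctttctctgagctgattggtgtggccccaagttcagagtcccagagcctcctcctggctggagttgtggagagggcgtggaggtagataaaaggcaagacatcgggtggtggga
Plin5, chr17:56117597-56117798, minus strand: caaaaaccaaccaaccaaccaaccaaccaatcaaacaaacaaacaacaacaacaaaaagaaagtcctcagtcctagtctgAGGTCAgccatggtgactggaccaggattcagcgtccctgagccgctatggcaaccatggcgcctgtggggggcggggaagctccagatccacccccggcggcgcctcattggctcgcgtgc
Mlycd, chr8:119394644-119394877, plus strand: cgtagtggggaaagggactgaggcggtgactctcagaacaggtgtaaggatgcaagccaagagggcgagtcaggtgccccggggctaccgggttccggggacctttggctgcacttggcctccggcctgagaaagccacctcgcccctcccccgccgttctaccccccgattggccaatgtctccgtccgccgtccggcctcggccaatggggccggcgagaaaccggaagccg
Ucp3, chr7:100472741-100472989, plus strand: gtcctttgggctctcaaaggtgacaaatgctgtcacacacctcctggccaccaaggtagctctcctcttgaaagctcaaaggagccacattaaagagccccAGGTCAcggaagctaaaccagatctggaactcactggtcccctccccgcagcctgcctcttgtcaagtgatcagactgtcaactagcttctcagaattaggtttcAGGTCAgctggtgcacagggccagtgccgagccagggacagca

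The Hadha-Hadhb stretch is the whole 85 bases between the annotated ends of both genes, and it holds 2 GC boxes. Of 27025 genes with a promoter entry, 9.44% hold at least 2 GC boxes in a window of that length just before the start. That share is over all genes, expressed or not. In the 250 bases before the start, 64.3% of expressed genes hold a GC box, against 35.4% of all 27025. The Ucp3 stretch holds 2 half-sites and the Plin5 stretch 1, while those of Pdk4 and Mlycd hold none. At least 2 half-sites occur in 1.51% of windows as long as that of Ucp3, and at least 1 in 13.0% of windows as long as that of Plin5. Promoter entries exist for 32 members. The half-site AGGTCA lay in the 250 bases before the start of 9 of them (28.1%), against 12.7% of the 10215 expressed genes with an entry and 15.8% of all 27025. Those 9 were Acadm, Acadvl, Acsl6, Cd36, Cpt1a, Echs1, Plin2, Plin5 and Ucp3. The longer oestrogen-related receptor element TCAAGGTCA, which contains the half-site, was found in 1 member, Acsl6, and occurs in 0.303% of the expressed genes with an entry. The pair of half-sites AGGNCANAGGNCA was found in no member and occurs in 0.245% of those genes. The GC box was as common in members (62.5%) as in the expressed genes with an entry (64.3%). These matches describe letters in these windows and show neither binding nor control.

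Members stood well above most genes of the muscle. A member's level is given as TPM, a measure of transcript abundance that corrects for length and library size. The median member had 45.0 TPM as the mean of both libraries, while the median of 13124 nuclear protein-coding genes averaging at least 20 counts was 6.55 TPM. Of the 39 members, 17 were among the 1000 most abundant nuclear protein-coding genes and 0 among the top 100. Together they made 2575 TPM in replicate 1 and 3050 in replicate 2. That was 0.589% and 0.691% of the TPM of nuclear protein-coding genes, so the pathway took the larger share in replicate 2. All 39 averaged at least 20 counts. Of them, 12 exceeded 100 TPM in both libraries, and 6 stayed under 10 TPM in both.

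**Figure D1:**
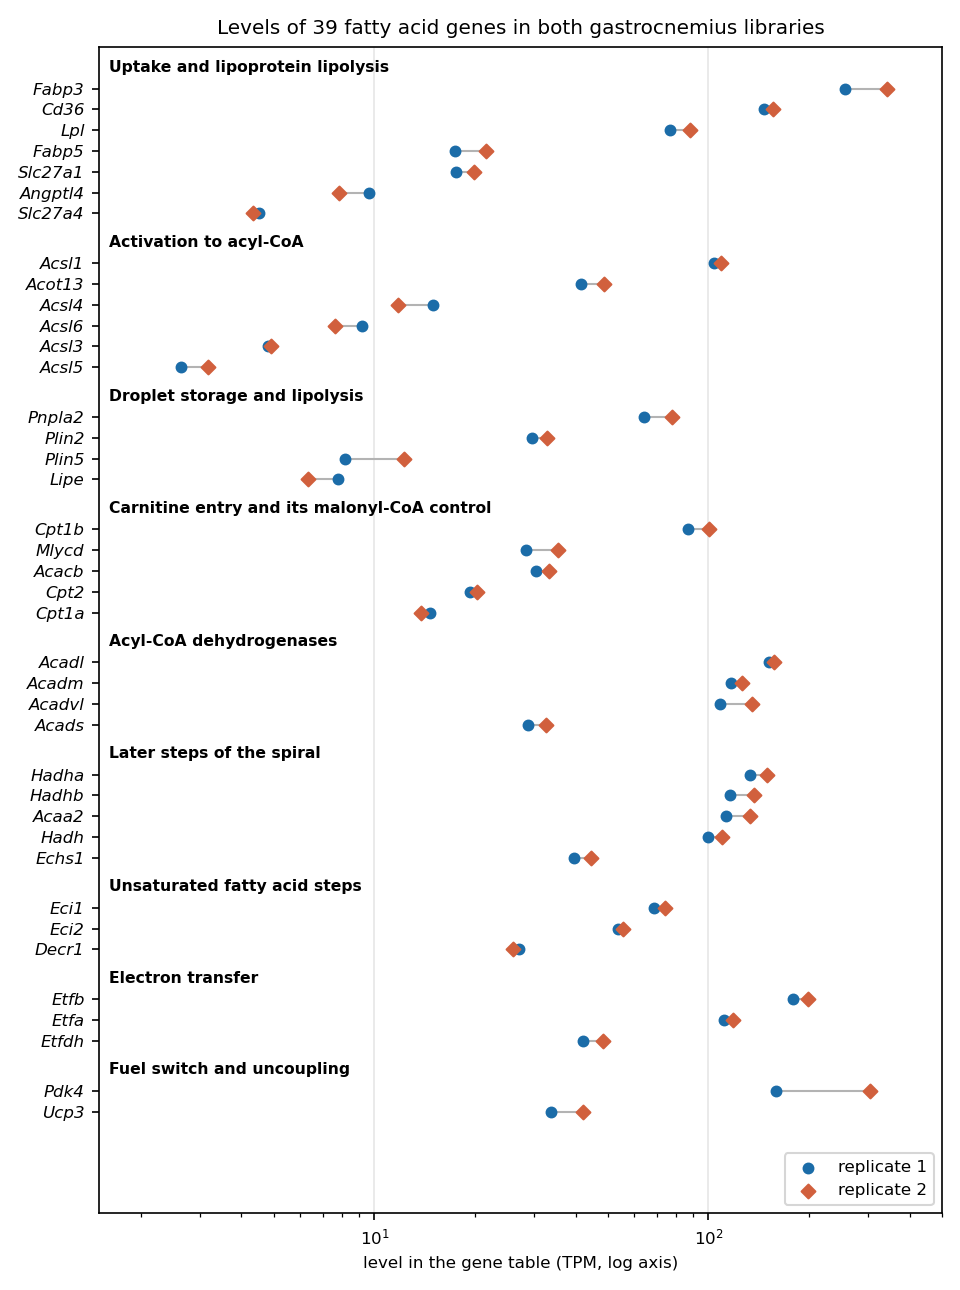
Level of each of the 39 members in TPM on a log axis, grouped by role, with a circle for replicate 1 and a diamond for replicate 2. Fabp3 is the highest at 256 and 343 TPM and Acsl5 the lowest at 2.63 and 3.18 TPM, and Pdk4 has the longest line between its points.

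Uptake genes held 20.8% ± 0.346 (SD, n = 2) of the members' summed TPM. Fabp3, the fatty acid binding protein of heart and muscle that carries fatty acids through the cytosol, had 256 TPM in replicate 1 and 343 in replicate 2. It was the most abundant member and alone made 9.94% and 11.2% of their sum. Cd36, the membrane protein that aids fatty acid uptake, had 146 and 156 TPM. Lpl, the lipase that splits lipoprotein triglyceride at the capillary wall, had 76.8 and 88.3 TPM. Both lay far above Angptl4, a secreted inhibitor of that lipase, at 9.64 and 7.86 TPM. Lpl exceeded Angptl4 9.37-fold, with a log2 ratio of 3.23 ± 0.35 (SD, n = 2), and Angptl4 was lower in the library in which Lpl was higher. Of the transport proteins with acyl-CoA synthetase activity, Slc27a1 had 17.5 and 19.9 TPM and Slc27a4 had 4.5 and 4.34 TPM. Their libraries did not overlap, and Slc27a1 was 4.15-fold higher. Fabp5, the epidermal type binding protein, had 17.4 and 21.6 TPM. Fabp3 exceeded it 15.2-fold, a log2 ratio of 3.93 ± 0.08. Fabp3 exceeded Fabp4, the binding protein of adipocytes and capillary endothelium, only 1.99-fold. In this bulk RNA, more cells of a type and more RNA per cell cannot be told apart, and Cd36 and Lpl are also made by cells other than muscle fibres.

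Among the long-chain acyl-CoA synthetase genes of the activation role, most of the RNA came from a single gene. Slc27a1 and Slc27a4, whose proteins also have synthetase activity, are counted with uptake. Acsl1, the main form in muscle and fat, had 104 TPM in replicate 1 and 109 in replicate 2. Acsl4, which favours arachidonic acid, had 15.0 and 11.8 TPM. Acsl6 had 9.2 and 7.6 TPM, Acsl3 4.79 and 4.89 TPM, and Acsl5 2.63 and 3.18 TPM. Acsl1 was thus 7.97-fold above Acsl4, 12.6-fold above Acsl6, 21.6-fold above Acsl3 and 35.6-fold above Acsl5. Each of these 4 log2 ratios was at least as large as 10.1 times its SD over the 2 libraries. Acot13, a thioesterase that hydrolyses acyl-CoA and so runs the step backwards, had 41.4 and 48.5 TPM, second in this role. The role as a whole made 6.47% ± 0.564 of the members' TPM.

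The 4 droplet genes among the members made the smallest share of the 9 roles, 4.25% ± 0.0153 (SD, n = 2). That share depends on which genes the role holds. Droplet genes outside the members, such as Plin4 at 45.05 and 48.95 TPM, are not counted in it. Pnpla2, the adipose triglyceride lipase that takes the first fatty acid off stored triglyceride, had 64.3 and 77.8 TPM. Lipe, the hormone-sensitive lipase, which acts mainly on the diglyceride left by that step, had 7.76 and 6.34 TPM. Pnpla2 exceeded Lipe 9.95-fold, a log2 ratio of 3.32 ± 0.40, with Pnpla2 higher and Lipe lower in replicate 2 than in replicate 1. Transcripts not annotated as protein coding held 60.8% of the TPM of Pnpla2 and 5.60% of that of Lipe. In the second deposited transcript table they held 91.8% and 2.22%. The fold is thus of whole genes, and coding transcripts alone need not keep that lead. Plin2, a coat protein of droplets in most tissues, had 29.6 and 32.9 TPM. Plin5, the coat protein of oxidative tissues that brings droplets close to mitochondria, had 8.15 and 12.3 TPM. Plin2 was 3.10-fold above Plin5, and the gap was smaller in replicate 2 (log2 ratio 1.42) than in replicate 1 (1.85).

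Of the members for carnitine palmitoyltransferase 1, which starts entry into mitochondria, the muscle form was the more abundant in RNA. Cpt1b, the muscle form, had 86.8 TPM in replicate 1 and 100 in replicate 2. Cpt1a, the liver form, had 14.7 and 13.7 TPM. The ranges were far apart, and Cpt1b was 6.52-fold higher, a log2 ratio of 2.71 ± 0.21 (SD, n = 2). Cpt2, which reverses the transfer inside the mitochondrion, had 19.3 and 20.3 TPM. Acacb makes the malonyl-CoA that inhibits the outer enzyme, and had 30.5 and 33.2 TPM. Mlycd, which breaks malonyl-CoA down, had 28.4 and 35.5 TPM. Their order differed between the libraries: the log2 ratio of Acacb over Mlycd was 0.10 in replicate 1 and -0.10 in replicate 2, so the genes did not differ beyond their spread. Acacb was 5.01-fold above Acaca, the form that feeds fatty acid synthesis.

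The 15 mitochondrial enzymes of the spiral and its electron carriers were abundant as a group, with a median of 115 TPM. Of the acyl-CoA dehydrogenases, which start each turn, Acadl (long chain) had 152 and 157 TPM and Acadvl (very long chain) had 108 and 135 TPM. Acadm (medium chain) had 117 and 126 TPM, while Acads (short chain) had 28.8 and 32.6 TPM. The short-chain enzyme stood apart: Acadm exceeded it 3.95-fold, a log2 ratio of 1.98 ± 0.05 (SD, n = 2). Acadl exceeded Acadm 1.27-fold. The order of Acadvl and Acadl is uncertain, since their log2 ratio was -0.35 ± 0.19 by the gene table but 0.10 by the second transcript table.

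The later steps made 19.1% ± 0.440 of the members' TPM. Hadha encodes the alpha subunit of the trifunctional protein, with hydratase and dehydrogenase activity for long chains, and had 133 and 150 TPM. Hadhb encodes its beta subunit, the thiolase, and had 116 and 137 TPM. The subunits, whose genes share the 85 bases printed above, differed by a log2 ratio of 0.16 ± 0.04 by the gene table but by -0.31 according to the second table. Their whole-gene levels were thus close, but their order is uncertain. Transcripts not annotated as protein coding held 79.5% of the TPM of Hadha and 30.5% of that of Hadhb, so coding transcripts alone need not be close. For shorter chains, Acaa2, the matrix thiolase, had 113 and 134 TPM, and Hadh, the hydroxyacyl-CoA dehydrogenase, had 99.7 and 110 TPM. Echs1, the short-chain hydratase, was the lowest of this role at 39.6 and 44.5 TPM. Both libraries of Echs1 lay below both libraries of the other 4 genes.

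Unsaturated fatty acids need extra enzymes to move or remove double bonds. The isomerase Eci1 had 68.5 and 74.1 TPM, and Eci2, a second isomerase, had 53.7 and 55.6 TPM. Eci1 was 1.30-fold higher, a log2 ratio of 0.38 ± 0.04. Decr1, the dienoyl-CoA reductase, had 27.1 and 25.95 TPM and was the lowest of this role in both libraries. Electrons leave the dehydrogenases through the electron transfer flavoprotein. Its beta subunit Etfb had 179 and 199 TPM and its alpha subunit Etfa had 111 and 118 TPM. Etfb was 1.64-fold above Etfa, although the subunits pair in equal numbers in the protein. Etfdh, which passes the electrons to ubiquinone, had 42.2 and 48.2 TPM, and Etfa exceeded it 2.54-fold.

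Pdk4 and Ucp3, whose upstream stretches are printed above, were taken with the pathway because both are known to respond to fatty acid supply. Pdk4, the kinase that switches off pyruvate dehydrogenase and so spares glucose, had 159 TPM in replicate 1 and 305 in replicate 2. It was the second most abundant member by its mean, and its libraries lay further apart than those of any other member. Ucp3, the mitochondrial carrier known as uncoupling protein of muscle, had 33.8 and 42.0 TPM. By the gene table, the share of this role was 7.49% in replicate 1 and 11.4% in replicate 2, the widest spread of any role (9.43% ± 2.74, SD, n = 2). In the second transcript table the TPM of Pdk4 lay closer together, at 245 and 367, and the mean share of the role was 8.18%. Its ratio of counts between the libraries, described further below, did not shrink there: the log2 ratio was 0.82 in both tables.

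In the order of levels, 27 of the 38 neighbouring pairs of members had ranges over the 2 libraries that overlapped. Ranges do not compare genes within a library, and some of these pairs kept the same order in both. For example, Fabp3 (256 and 343 TPM) lay above Pdk4 (159 and 305 TPM) in each library. The 11 breaks without overlap included those that set Etfb above Acadl and Etfa above Acsl1, and neither pair overlapped in the second transcript table. Between those breaks, each of Acadl, Cd36, Hadha, Hadhb, Acaa2, Acadm and Acadvl overlapped the next in line, the last of them Etfa. Other breaks did not hold in the second table. Lpl stood above Eci1 without overlap, but had 109 and 123 TPM there against 120 and 135 TPM for Eci1. Lipe stood above Acsl3, but had 9.75 and 8.38 TPM there against 10.1 and 10.9 TPM for Acsl3. Pnpla2 above Eci2, and Slc27a4 above Acsl5, were breaks whose ranges overlapped in the second table, so these 4 orders are uncertain. Acsl3 lay above Slc27a4 without overlap in both tables. Of the 20 ratios between paralogs and partners, 17 had the first gene higher in both libraries, and the exceptions were Etfa over Etfb and Acadvl over Acadl, both below 0, and Acacb over Mlycd. Ratios of levels are on the scale of log2(TPM + 0.1).

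**Figure D2:**
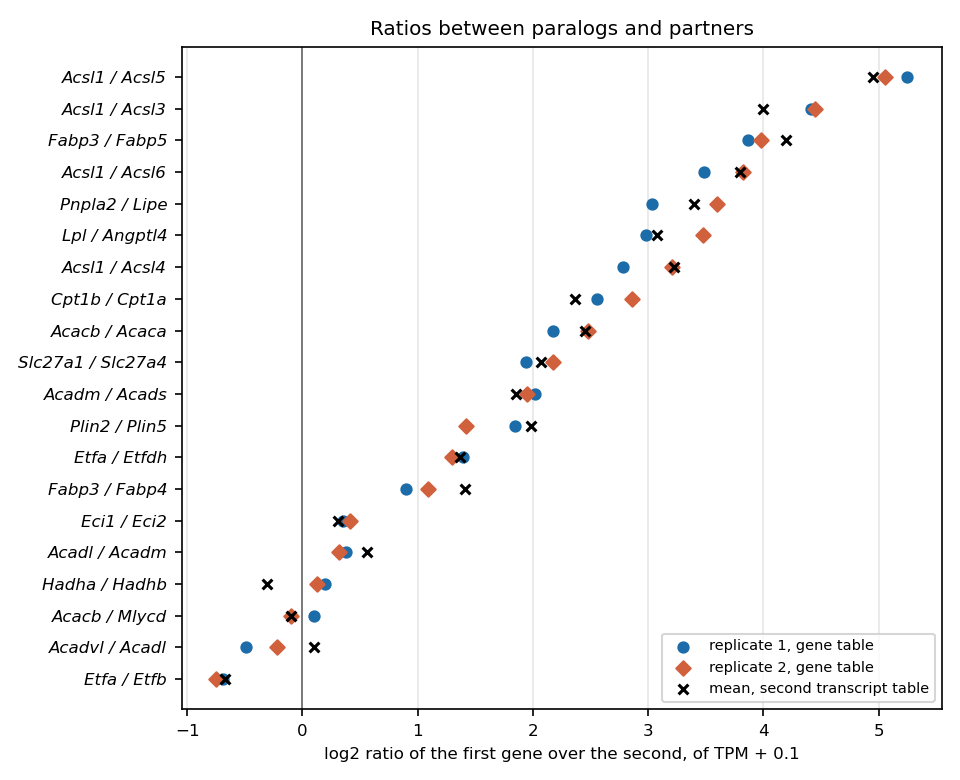
Log2 ratio of the TPM of the first gene over the second in 20 pairs, with a circle for replicate 1, a diamond for replicate 2 and a cross for the mean in the second transcript table. Acsl1, Fabp3 and Cpt1b lie right of 0 in both libraries in each of their pairs, and Hadha over Hadhb and Acadvl over Acadl change sign between the tables.

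Many members' reads were assigned to more than 1 transcript, which bears on their levels since TPM divides by length. In 14 members the leading transcript held 90% or more of the gene's TPM, and in 11 it held under 70%. Fabp3 has 1 annotated transcript, and Hadh-201 and Acot13-201 held 99.2% and 99.4%. In Slc27a1 the leading transcript held 39.1%, in Plin2 Plin2-201 held 40.8% and in Acsl6 Acsl6-205 held 48.0%. Those of Pnpla2, Plin5, Acsl4 and Acadm held 55.9%, 61.6%, 62.3% and 68.0%. Plin5 has 2 transcripts, both annotated as 1986 bases long, and Plin5-201 held 50.4% in replicate 1 and 72.8% in replicate 2. In the second table its share went the other way, with 100% in replicate 1 and 80.0% in replicate 2.

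The leading transcript was the same in both deposited transcript tables in 35 members. The 4 exceptions were Cd36, Lipe, Hadhb and Eci2. For Cd36, Cd36-203 led with 46.9% in the gene table's companion and held 6.15% in the second table, where Cd36-202 held 42.4%. For Hadhb, the coding Hadhb-201 led with 48.9%, while in the second table Hadhb-208, a retained intron of 507 bases, held 51.0%. Eci2-211 held 50.7% and 0.941%. Lipe-202 held 49.99% and 37.9%, behind Lipe-208 at 48.2% in the second table. In 3 members the leader is not annotated as protein coding: Angptl4-202 (nonsense-mediated decay, 82.7%), Pnpla2-201 (nonsense-mediated decay, 55.9%) and Hadha-201 (processed transcript, 72.8%). These assignments held in the second table, at 77.2%, 71.6% and 76.6%. Pdk4-201, the coding transcript of 3484 bases, held 77.0% in replicate 1 and 66.5% in replicate 2, but 68.2% and 75.2% in the second table. Pdk4-202, a retained intron of 412 bases, held 15.1% and 27.0%, but 4.38% and 1.99% in the second table.

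**Figure D3:**
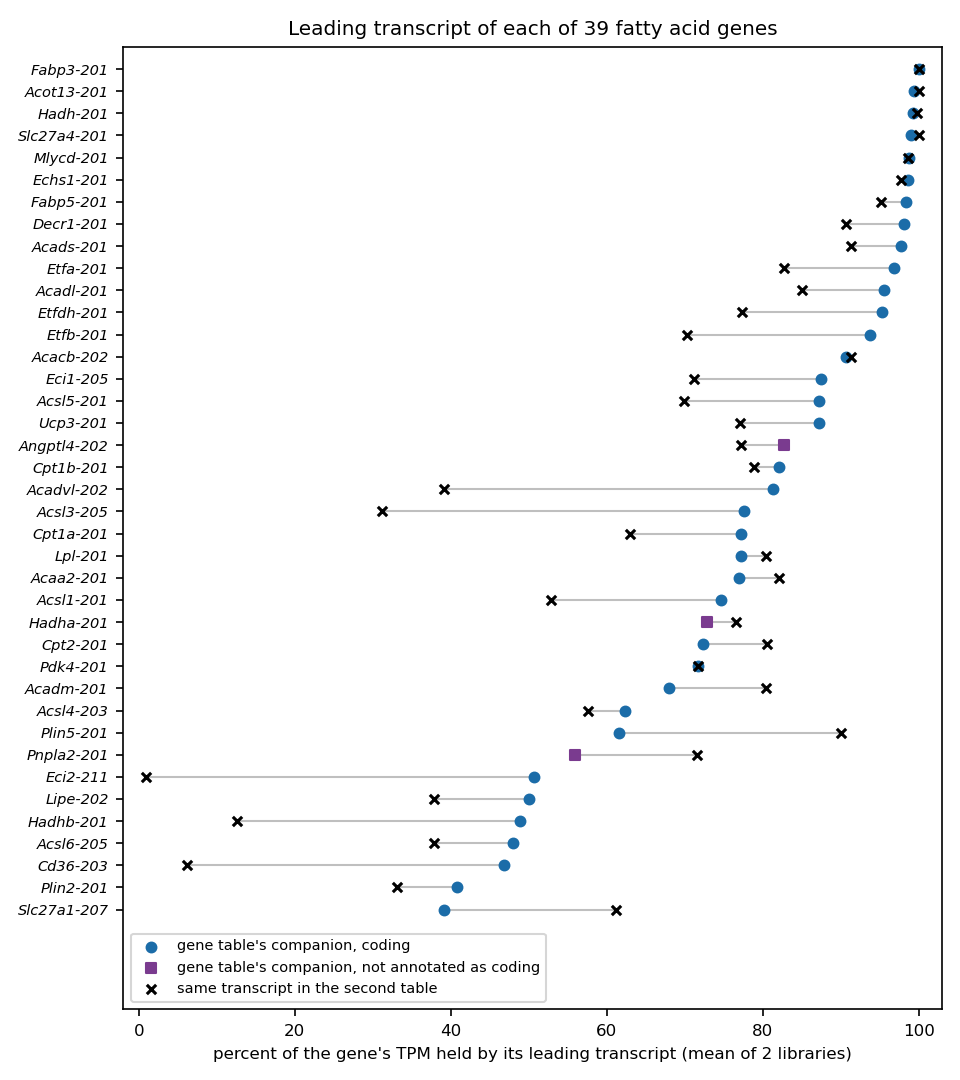
Percent of each member's TPM held by its leading transcript, as the mean of 2 libraries, with a filled point for the gene table's companion transcript table and a cross for the same transcript in the second table. Long lines mark members whose make-up differs between the tables, such as Cd36, Hadhb and Eci2, and squares mark the 3 leaders not annotated as protein coding.

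Between the libraries, the members leaned toward replicate 2. Ratios here are of counts, as log2 of replicate 2 over replicate 1 after TMM scaling, with 95% exact binomial intervals that cover counting error only. Of the 39 members, 33 were higher in replicate 2 and 6 lower, while 53.4% of the 13124 nuclear protein-coding genes were higher. The median member ratio was 0.22 and that of all those genes 0.01. Of the members, 8 were at least 25% higher in replicate 2 (background 7.22%), and 0 were at least 25% higher in replicate 1 (background 8.08%). The interval lay wholly above 0 in 29 members (background 19.2%), wholly below 0 in 3 (background 13.1%) and spanned 0 in 7. Intervals are narrower at high counts, and the members are more abundant than most genes, so this last comparison is not between like counts. No p is given, since each side is 1 library.

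Pdk4 was the furthest apart, with 13885 counts in replicate 1 and 23411 in replicate 2. Its log2 ratio was 0.82 (0.79 to 0.85), or 1.77-fold. Of the 13124 nuclear protein-coding genes averaging at least 20 counts, 1.90% were as far apart or further. By TPM the fold was 1.92, which includes the short retained intron, and by counts of Pdk4-201 alone it was 1.74. Plin5 had 499 and 752 counts, a ratio of 0.66 (0.50 to 0.83). Fabp3 had 6009 and 8053 counts, a ratio of 0.49 (0.44 to 0.54). These 3 members act on fuel choice, the droplet coat and cytosolic transport, so they do not belong to 1 step. Mlycd followed at 0.39, Ucp3 at 0.38, Fabp5 at 0.36, Acadvl at 0.35 and Pnpla2 at 0.34. Pnpla2 was the last member inside that limit of 25%, and Acaa2 at 0.31 the first outside it. In the second table they were again 8 in number, but with Fabp5 outside the limit at 0.26 and Acaa2 inside it at 0.34.

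All 15 mitochondrial enzymes lay higher in replicate 2, from Decr1 at 0.02 to Acadvl at 0.35, with a median of 0.23. Decr1 turned to -0.02 under total endogenous counts and to -0.01 under spike-in totals, so all 15 were higher by TMM scaling and 14 by those totals. In 13 of the 15 the interval lay above 0, and the exceptions were Decr1 and Eci2. With the carnitine genes, 19 of 20 were higher, the exception being Cpt1a at -0.07. Of the other 19 members, 14 were higher, with a median of 0.14. The members lower in replicate 2 were Acsl4 at -0.28 (-0.36 to -0.19), Angptl4 at -0.27 (-0.44 to -0.10) and Acsl6 at -0.20 (-0.35 to -0.04), and, with intervals that span 0, Lipe at -0.10, Cpt1a at -0.07 and Slc27a4 at -0.01. Of the synthetases, Acsl4 and Acsl6 thus lay below 0, and Acsl1 (0.12), Acsl3 (0.10) and Acsl5 (0.09) above it, the last pair with intervals that span 0. Cpt1b had a ratio of 0.25. The sign was the same in the second transcript table for 38 members, all but Slc27a4. Under scaling by total endogenous counts, which lowers all ratios alike, 5 rather than 8 members were at least 25% higher in replicate 2, and 32 were higher at all.

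**Figure D4:**
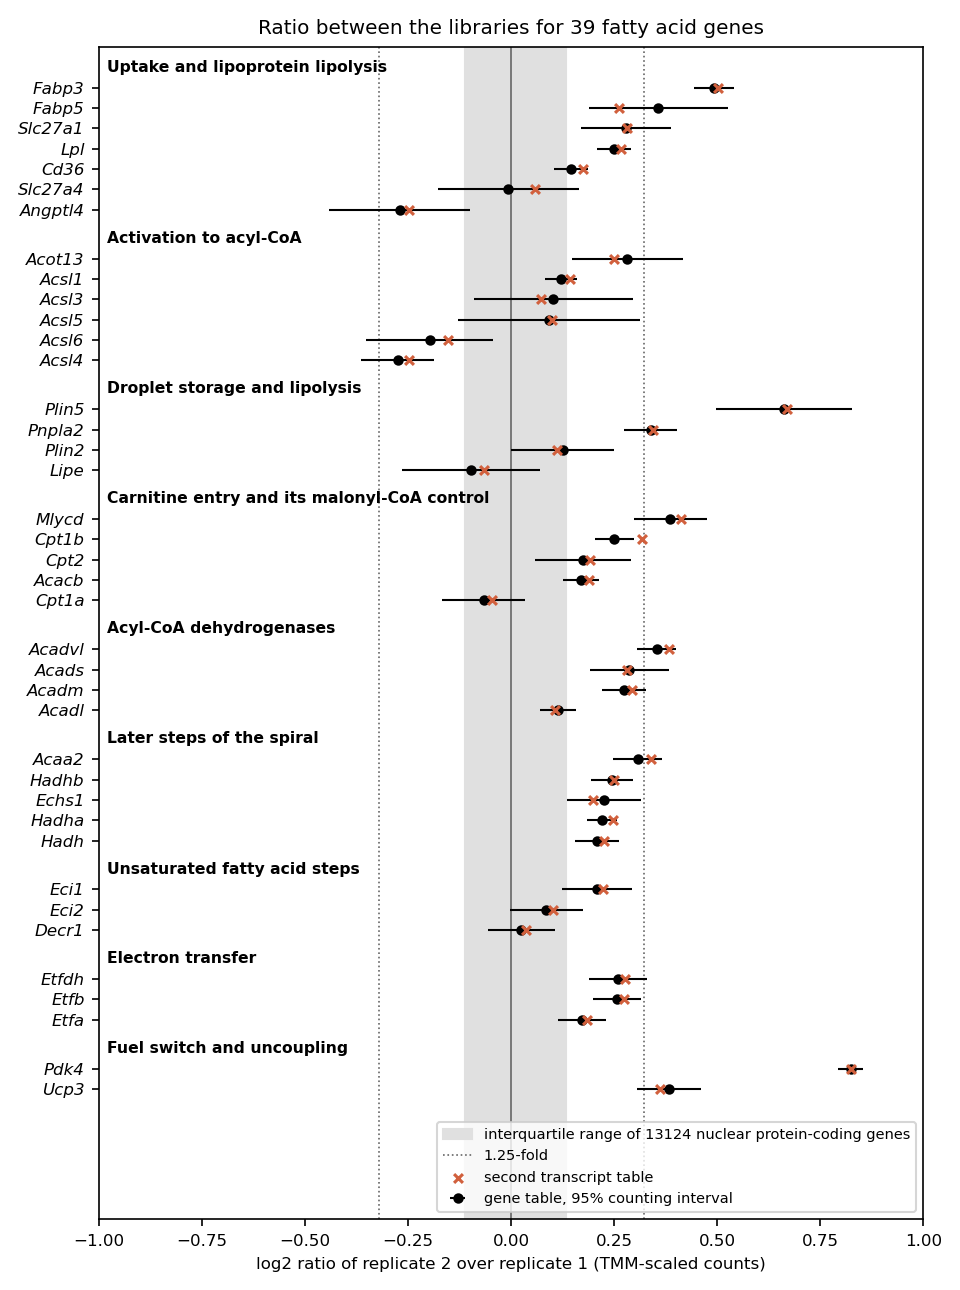
Log2 ratio of replicate 2 over replicate 1 for each member, grouped by role, as black points with 95% counting intervals from the gene table and crosses from the second transcript table. The grey band is the interquartile range of 13124 nuclear protein-coding genes and dotted lines mark a level 25% higher in either library, and Pdk4 (0.82) and Plin5 (0.66) lie furthest to the right.

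Genes of the same pathway that are not members were compared in the same way. Of 16 other oxidation genes, 14 lay higher in replicate 2 (background 53.4%) and the median was 0.13. The interval lay above 0 in 5 of the 16 (background 19.2%), below 0 in 1 (background 13.1%) and spanned 0 in 10. As for the members, comparisons of intervals with the background were not matched for counts, here and in the lists that follow. Of these 16 genes, 1 was at least 25% higher in replicate 2 (background 7.22%). Crat, which buffers acetyl-CoA as acetylcarnitine, was the most abundant of them at 111 and 130 TPM. Acat1, a thiolase of ketone and isoleucine breakdown, had 41.0 and 45.1 TPM, and Hsd17b10, a hydroxyacyl-CoA dehydrogenase, had 41.0 and 39.9 TPM. Among 17 other uptake and storage genes averaging at least 20 counts, 11 were higher (background 53.4%) and the median was 0.15. The interval lay above 0 in 10 of the 17 (background 19.2%), below 0 in 2 (background 13.1%) and spanned 0 in 5. Fabp4 had 137 and 161 TPM, the caveola protein Cav1 131 and 157 TPM, and Gpam, which starts triglyceride synthesis, 48.65 and 49.6 TPM. Slc27a3 was the lowest at 0.9 and 1.17 TPM, and Slc27a2, with 1 and 2 counts, was too low to compare. Plin1, the coat protein of adipocyte droplets, had 6.19 and 3.27 TPM and a ratio of -0.86, opposite in sign to Plin5 and Plin2.

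Of the 10 regulators of the pathway, 8 lay higher in replicate 2 (background 53.4%) and the median was 0.27. The interval lay above 0 in 7 of the 10 (background 19.2%), below 0 in 1 (background 13.1%) and spanned 0 in 2. Rxra, the shared partner of nuclear receptors, was the most abundant at 26.1 and 20.6 TPM and was lower in replicate 2, with a ratio of -0.26 (-0.33 to -0.19). The oestrogen-related receptor Esrra had 19.5 and 21.3 TPM, and Ppard, a receptor for fatty acids, had 13.4 and 11.95 TPM. Esrrg, an oestrogen-related receptor typical of oxidative muscle, had 4.8 and 6.51 TPM and a ratio of 0.67 (0.52 to 0.83). Nr4a3, a nuclear receptor induced early after stimulation, was the lowest by its mean at 0.93 and 3.03 TPM, though above Ppara (2.93 TPM) and Pparg (2.38 TPM) in replicate 2, and had the largest ratio, 1.57 (1.29 to 1.87). The 7 genes of fatty acid synthesis lay the other way: 0 were higher in replicate 2 (background 53.4%) and the median was -0.19. In 5 of the 7 the interval lay below 0 (background 13.1%). The desaturases Scd2 and Scd1 had 23.5 and 19.6 TPM, and 19.8 and 17.8 TPM. Acly, which makes acetyl-CoA from citrate, had 11.3 and 10.6 TPM. Elovl6, which lengthens palmitate, was the lowest at 3.07 and 1.75 TPM, with a ratio of -0.63 (-0.85 to -0.42).

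Markers of the labelled tissue were the most abundant of the lists, and some lists of other cell types differed between the libraries. The 6 muscle fibre markers summed to 74672 and 76517 TPM, with 5 higher in replicate 2 and a median ratio of 0.15. For this list and those below, the background share of genes higher in replicate 2 was 53.4%. The muscle fibre marker that was lower was the fast myosin gene Myh4, with 8972 and 7723 TPM and a ratio of -0.14. All 6 slow fibre markers lay higher in replicate 2 (median 0.63), with sums of 776 and 1123 TPM. The 6 erythroid markers had a median of 0.86, with all 6 higher and sums of 1139 and 2083 TPM. Of 8 endothelial markers, 7 were higher, with a median of 0.21 and sums of 224 and 241 TPM. The 6 macrophage markers had a median of 0.05, with 4 higher and sums of 57.6 and 57.4 TPM. All 5 fibroblast markers were lower in replicate 2, with a median of -0.13 and sums of 2496 and 2255 TPM.

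Of 9 adipocyte markers averaging at least 20 counts, 3 were higher (background 53.4%), with a median of -0.10. The 10 adipocyte markers summed to 519 and 607 TPM, mostly Car3 (341 and 411 TPM) and Fabp4, both of which muscle tissue also expresses outside adipocytes. Adipoq, the defining adipocyte hormone gene, had 6.42 and 6.51 TPM, and 13.7 and 8.24 TPM in the second table. Plin1 and Pck1, 2 of the 6 lower markers, had ratios of -0.86 and -0.78. Cfd, among the 3 higher with Car3 and Fabp4, had a ratio of 0.38 (0.13 to 0.63). Adipocyte RNA was thus present and its markers did not move alike. Lipe is both a member and a marker here, and Plin1 and Fabp4 stand in the storage list too. Of the 5 brown adipocyte markers, Ucp1 had 0 counts in both libraries, where 3 counts is the limit that a count of 0 allows, and Elovl3 had 0 and 2. The rest were detected: Cidea had 46 and 54 counts, Dio2 170 and 155, and Ppargc1a, which is also in the regulator list, 1242 and 1404. The part of slow fibre, blood and vessel RNA in the members' ratios was not tested.

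**Figure D5:**
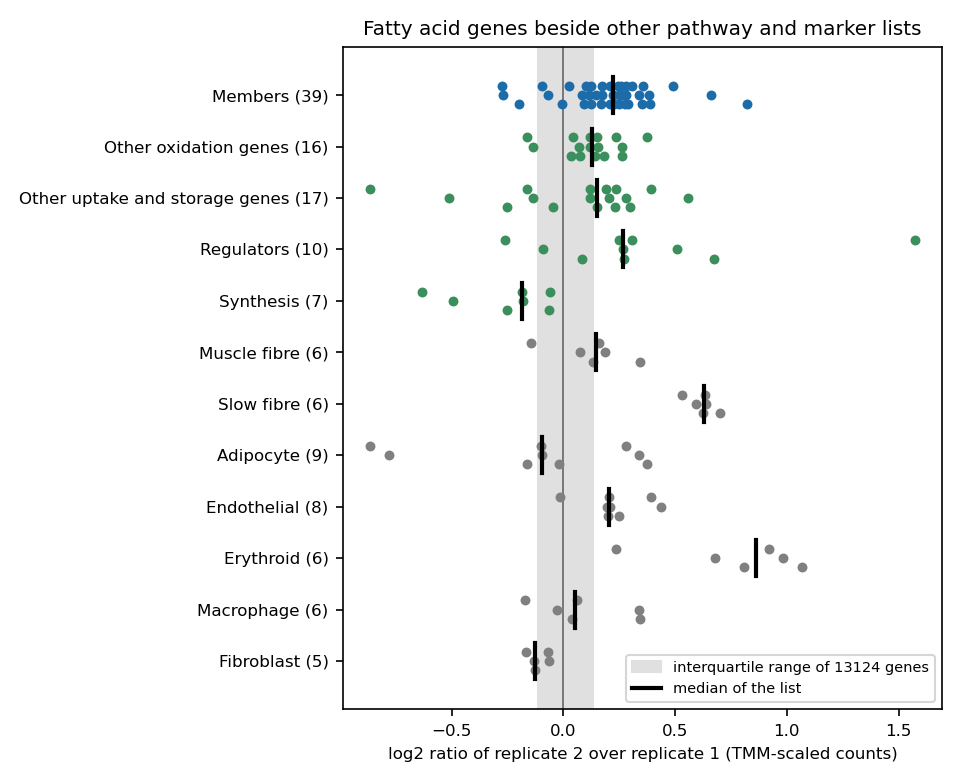
Log2 ratio of replicate 2 over replicate 1 for genes averaging at least 20 counts, with 1 point per gene, members in blue, other pathway lists in green and cell type markers in grey, and the number of genes beside each name. Black bars are list medians (members 0.22, slow fibre 0.63, erythroid 0.86, synthesis -0.19) and the grey band is the interquartile range of 13124 genes.

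The libraries were deep and alike in size, with 38874862 and 38160786 expected counts, of which ERCC spike-ins took 0.741% and 0.735%. Counts of 30 members were whole numbers as deposited, with 2 decimals, in both libraries. Exons of 13 members overlap another annotated gene, 10 on the opposite strand and 3 on the same strand. On the same strand, Cpt1b overlaps Gm44502 by 2744 bases, and that gene took 38.0 and 45.1 counts, against 6691 and 7579 for Cpt1b. Acsl3 overlaps Utp14b by 244 bases, and that gene took 213 and 202 counts, against 440 and 450 for Acsl3, so the level of Acsl3 is the less certain. Among opposite-strand partners, Zcchc17 overlaps Fabp3 by 81 bases and had 933 and 973 counts. Dvl2 overlaps Acadvl by 1151 bases and had 309 and 294 counts, against 6432 and 7826 for Acadvl. Gm12224 overlaps Acsl6 by 202 bases and had 133 and 149 counts, against 754 and 626 for Acsl6. Zdhhc6 overlaps Acsl5 by 404 bases and had 542 and 516 counts, against 340 and 345 for Acsl5. The sources used here do not say whether counting used strand, and Acsl6 and Acsl5 in particular are uncertain for that reason. Reads of CAST/EiJ alleles were set against the C57BL/6J reference, and an effect of this on single members was not tested.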

How the data were processed

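The authors deposited gene and transcript tables with expected counts, posterior mean counts, TPM and each transcript's percent of its gene, in RSEM's column layout, per the file headers, with GENCODE M21 on mm10 according to the accompanying notes. Their deposited second transcript table, laid out as kallisto writes it, has TPM and estimated counts. The deposited TPM is scaled over all listed features, spike-ins included. Aligner and versions of the programs were not given in the sources used here. Deposited percent values (share of a gene's TPM by transcript) were recomputed from transcript TPM.

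Symbols were mapped to gene identifiers through the second table, with 0 unmatched. Expected counts were rounded and scaled with TMM (edgeR 4.0.16, R 4.3.3) over endogenous genes averaging at least 10 counts. Ratios used a prior count of 0.5, and level ratios a pseudocount of 0.1 TPM. Intervals are exact binomial (scipy 1.17.1), cover counting error only, and assume reads to be independent molecules. The calculation of log2 ratios was tested on simulated counts, with the ratios centred on their median. TMM scaling and the intervals were not part of that test. Alternatives were DESeq2 1.42.0 size factors, library and spike-in totals, the second table, posterior means, other filters, prior counts and pseudocounts, and leaving out each replicate.

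The members and lists were chosen with earlier results of these data known. Named with both values are members at least 25% higher in either library, the 2 highest and the lowest of each role and genes of the 20 pairs. Of other lists these are the 3 highest, the lowest and any past 1.5-fold, and of transcripts the leaders under 70% or differing between tables. A gene that this rule names is not reported here. Members and list genes named beyond these were chosen after their values were seen. Where the labels name separate animals they also give 1 donor code, so the spread between the libraries may be partly technical.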

Additional observations from a re-analysis of the deposited data

How the results depend on the processing

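Over 8 alternative settings of scaling, table, estimate, filter or prior count, between 32 and 34 of the 39 members were higher in replicate 2, the median log2 ratio lay between 0.18 and 0.22, and 0 members were at least 25% higher in replicate 1. The number at least 25% higher in replicate 2 was 8, except for 5 under total endogenous counts and 6 under spike-in totals. Without the members whose exons overlap another gene, an alternative chosen after seeing the data, 22 of the remaining members were higher and 6 were at least 25% higher. The second transcript table gave shares of 3.94% for droplet genes, 5.99% for carnitine entry, 16.0% for acyl-CoA dehydrogenases and 6.23% for unsaturated fatty acid steps, and posterior mean TPM gave 4.29% for droplet genes; the cause was not tested. In the second table the log2 ratio of Acadvl over Acadl was 0.10 and that of Hadha over Hadhb -0.31, both opposite in sign to the gene table; the cause was not tested. Levels of 38 members moved by more than 1 SD in the second table and of 24 once it was scaled to nuclear protein-coding genes, but no member was over 2-fold apart between the scaled tables. A SD from 2 libraries is itself poorly known. No paired analysis was possible because there is 1 group.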
